A study of Macaca fascicularis with 16 samples.

Results

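The genes of the cytosolic ribosomal proteins were examined in 16 RNA libraries from blood of cynomolgus macaques given NKTT320. Members were taken by symbol: RPL or RPS followed by a number and at most the letters A, L or X, together with RPLP0, RPLP1, RPLP2 and RPSA, leaving out pseudogenes, the Y-linked RPS4Y genes and the RPS6 kinases. The rule found 83 of the 23602 gene symbols in the count tables, 50 named for the large and 33 for the small ribosomal subunit. The libraries were made from peripheral blood mononuclear cells (PBMC, the lymphocytes and monocytes of blood) of 4 Mauritian-origin animals, LG04, LG11, LG12 and LG15. Each animal was bled before dosing and 30 minutes, 2 hours and 1 day after it, which gave 4 libraries at each time. NKTT320 is a monoclonal antibody against the invariant T cell receptor carried by iNKT cells, a small population of T cells that recognise lipids. All 4 animals received the antibody, and no undosed animal was analysed here, so time after the antibody and time after repeated bleeding cannot be told apart. Values of the animals are always given in the order LG04, LG11, LG12, LG15.

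Ribosomal proteins coat the ribosomal RNA of the large and small subunits, and a cell needs them in matched amounts to build ribosomes. Their mRNAs are among the most abundant in lymphocytes. Nearly all begin with a terminal oligopyrimidine (TOP) tract, through which the mTOR pathway controls their translation together with that of several translation factors, so that the whole set is commonly studied as a unit.

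Total counts per library ran from 1417467 to 8582852, and 3 counts corresponded to 0.350 to 2.12 CPM, the counts of a gene scaled to a fixed library total. All 15 genes of a T cell marker list were detected, with a summed level of 661 to 3864 CPM, and the 15 monocyte markers summed to 300 to 10333 CPM. Globin genes took between 0.0253% and 48.7% of the counts of a library. Platelet markers summed to 155 to 11074 CPM before dosing and to 894 to 26633 CPM at 1 day, with LG04 and LG15 at the top of the latter range. The 1 day libraries of LG04 and LG15 also had a low chi-square per gene between them over the whole table. Without globin it was 7.30, lower than in 23 of the 24 pairs of libraries from the same animal. This measure was not corrected for depth and tends to be lower in shallower libraries. LG04 and LG15 held 1846011 and 3156626 counts at 1 day, so the value does not by itself show that they were alike. The 1 day library of LG04 also had the lowest correlation within an animal, r = 0.0606 with LG04 before dosing in deviations from the time means across genes. A wrong label on a library was not tested, and the changes of LG04 and LG15 at 1 day assume that their labels are right. The main 1 day results are therefore also given without the 1 day library of LG04.

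The most abundant members by length-normalised level came from both subunits. The 5 highest over the 16 libraries were RPL38 with a mean of 2692 FPKM, RPS27 with 2643, RPS14 with 2402, RPL37A with 2268 and RPL11 with 2082. FPKM are levels scaled by gene length and library total, the scale used here to compare different genes. The deposited FPKM are a separate estimate and not the counts rescaled. RPL28 before dosing, for example, read 238 and 84.9 CPM in LG04 and LG12 but 215 and 147 FPKM. RPS27, a zinc-finger protein of the small subunit, had 2889 ± 756 FPKM before dosing (SD, n = 4). RPS14, whose loss on a deleted chromosome arm is known from human myelodysplastic syndrome, had 2458 ± 217 FPKM. RPL11, which together with RPL5 carries the 5S ribosomal RNA and can hold back MDM2, had 2260 ± 651 FPKM. Part of the order of the leading members held within libraries: RPL38 exceeded RPL37A and RPL11, and RPS27 exceeded RPL11, in 16 of 16 libraries. RPL38 exceeded RPS27 in 8 of 16 and RPS14 exceeded RPL37A in 10 of 16, so those places were not fixed. The 5 leading members held 21.2% to 25.8% of the summed FPKM of all members in every library.

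At the other end, RPS27L had a mean of 23.9 FPKM, RPL22 25.3, RPS2 27.9, RPS23 43.9 and RPL13 53.9 over the 16 libraries, these being the lowest of the members that passed the count filter. RPS2 and RPL13 are core parts of every ribosome, whereas RPS27L is a p53-responsive paralog of RPS27. Ribosomes need these proteins in equal numbers, and many processed pseudogenes of them exist, so the low values of core members are uncertain where reads match several copies. Entries named as ribosomal protein pseudogenes summed to 710 to 2561 CPM per library. Neither RPL21 nor RPS18 had a count in any of the 16 libraries, and RPL21 was listed at 0.0296 to 0.181 FPKM. RPL39 had a count in 1 library, at 0.244 CPM, and RPL3L and RPL10L each had a count in 1 library, at 0.247 CPM in LG12 before dosing. RPL39L, the testis-rich copy of RPL39, reached 0.487 CPM at most. In all, 8 genes did not pass the filter, which left 75 members, 45 of the large and 30 of the small subunit, for the tests.

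**Figure D1:**
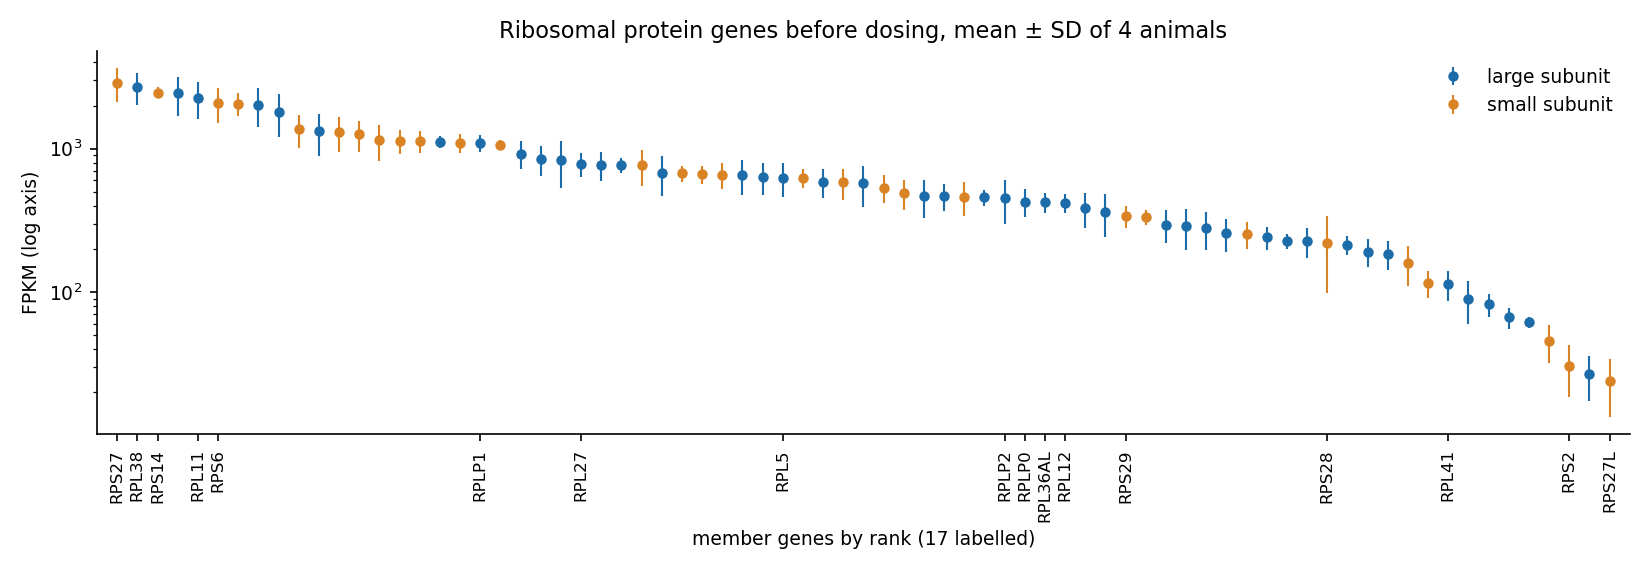
FPKM (log axis) of the 75 tested members before dosing, ranked by their mean, as mean ± SD of 4 animals, coloured by subunit. Members span from 2889 FPKM for RPS27 to 23.9 FPKM for RPS27L, and both subunits occur along the whole range.

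Among the paralog pairs, RPL36AL exceeded RPL36A in level, with 423 ± 67.7 against 89.6 ± 29.8 FPKM before dosing (SD, n = 4). RPS27 exceeded RPS27L by far, at 2889 ± 756 against 23.9 ± 10.4 FPKM. RPL3 stood at 459 ± 58.5 FPKM, while its muscle copy RPL3L was listed at 0.0438 ± 0.0876 FPKM. RPL10 had 226 ± 27.5 FPKM, and its retrogene RPL10L 0.0957 ± 0.191 FPKM. RPL3L and RPL10L were thus at or near 0 in these cells, while RPL36AL was the more abundant of its pair.

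The summed level of the members was lower 1 day after NKTT320 than before it in each of the 4 animals. The median member moved by -0.08, -0.02, -0.33 and -0.33 log2 units after TMM scaling, so by little in LG04 and LG11. Before dosing the members took 2.35%, 2.97%, 3.59% and 3.15% of all counts in LG04, LG11, LG12 and LG15. At 30 minutes they took 1.85%, 2.52%, 3.22% and 4.57%, and at 2 hours 1.28%, 2.63%, 3.87% and 3.24%. At 1 day the shares were 1.97%, 2.63%, 2.80% and 1.89%, and the 1 day range overlapped that before dosing. LG15 had both the highest share of all libraries at 30 minutes and the third lowest at 1 day.

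The globin share moved with these values in LG04: it was 20.3% before dosing, 38.2% at 30 minutes, 48.7% at 2 hours and 13.6% at 1 day. Among counts other than globin, the members of LG04 took 2.94%, 2.99%, 2.50% and 2.29% at the 4 times in turn. Over the 4 animals the share among non-globin counts was 3.25% ± 0.280 before dosing, 3.44% ± 0.878 at 30 minutes, 3.19% ± 0.660 at 2 hours and 2.55% ± 0.254 at 1 day (SD, n = 4). All 4 animals were lower at 1 day than before dosing on this scale, by -0.37, -0.19, -0.36 and -0.49 on the log2 scale, and by -0.06, -0.11, -0.29 and -0.24 after TMM scaling. Without LG04 the non-globin share was 3.35% ± 0.235 before dosing and 2.64% ± 0.222 at 1 day (SD, n = 3). At 2 hours LG04 and LG11 were below their own level before dosing in non-globin share, and LG12 and LG15 were above it. With 4 animals no exact paired sign test can reach 0.05, and none was made on the sum. In bulk RNA, fewer cells of a type and less of these mRNAs per cell cannot be told apart.

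**Figure D2:**
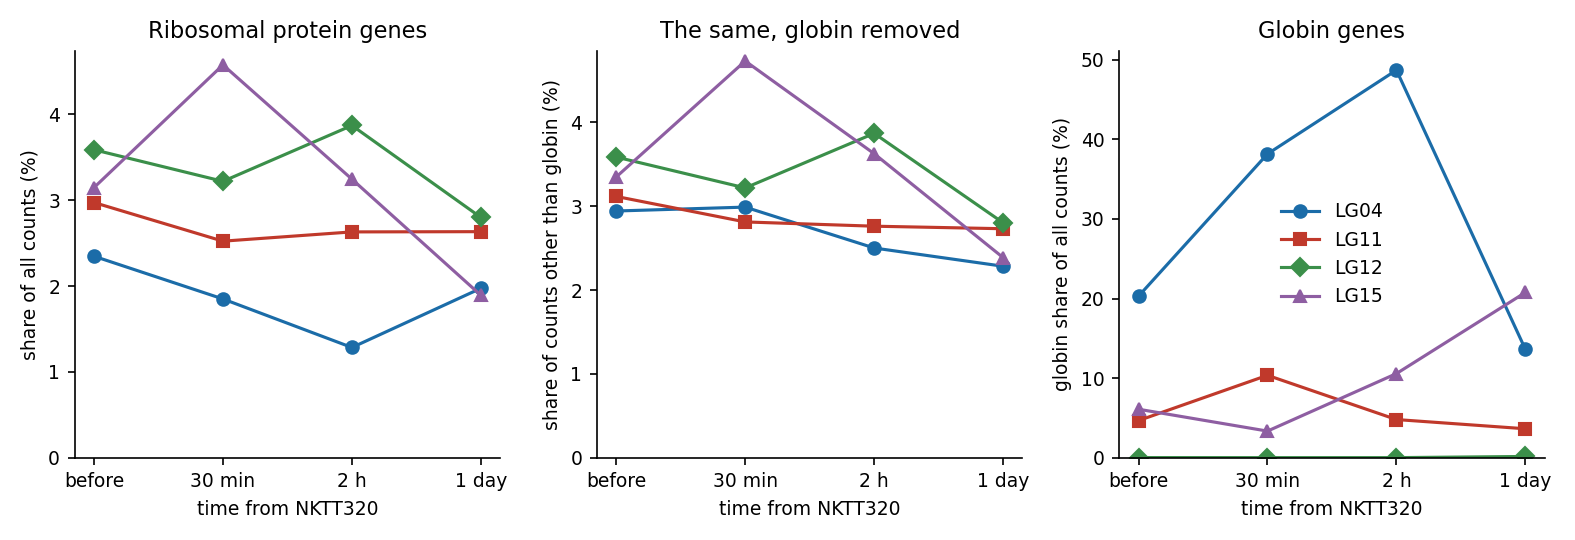
Share of all counts taken by the ribosomal protein genes (left), their share of counts other than globin (middle) and the globin share (right), in percent, at 4 times for each animal. In the left and middle panels every animal is lower at 1 day than before dosing; globin in LG04 runs from 20.3% to 48.7% and back to 13.6%.

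In summed FPKM, the ratio of large to small subunit members was higher at 2 hours and at 1 day than before dosing, by small amounts. The summed FPKM of large subunit members divided by that of the small subunit was 1.16 ± 0.00804 before dosing, 1.16 ± 0.00632 at 30 minutes, 1.22 ± 0.0777 at 2 hours and 1.2 ± 0.0143 at 1 day (SD, n = 4). At 1 day the 4 libraries read 1.18, 1.2, 1.21 and 1.19, against 1.15, 1.16, 1.17 and 1.16 before dosing. In FPKM the ratio was thus higher in 4 of 4 animals and the groups did not overlap. The mean log2 difference was 0.04 ± 0.01 (SD), so it exceeded the spread between animals. Without LG04 the ratio was 1.16 ± 0.002 before dosing and 1.2 ± 0.0140 at 1 day (SD, n = 3). At 2 hours it was again higher in 4 of 4 animals, with a mean log2 difference of 0.07 ± 0.09, and the lowest library, at 1.169, lay just above the highest before dosing, at 1.167. The 2 hour library of LG15 stood at 1.33 while the other 3 libraries at that time read 1.17 to 1.19. By counts the ratio did not rise in all animals. In LG04 large and small subunit members took 1.36% and 0.985% of counts before dosing and 1.14% and 0.837% at 1 day, a lower ratio. In LG11 they took 1.73% and 1.24% before dosing and 1.52% and 1.11% at 2 hours, also a lower ratio. LG12 and LG15 were higher by counts at both times, so the rise depended on the measure.

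Gene by gene, no member passed the test at any time. The test was edgeR's quasi-likelihood test with the animal as a term, adjusted by Benjamini-Hochberg over 11545 genes, with a threshold of 0.05. At 30 minutes 0 of 75 members were called, beside 0% of all genes, and 0 members had an unadjusted p under 0.05, a level that 2.53% of all genes passed. At 2 hours it was again 0 of 75, beside 0% of all genes, with 0 members at the unadjusted level, where 7.43% of all genes were. At 1 day 0 of 75 were called, beside 0.225% of all genes. At the unadjusted level of 0.05 there were 5 members at 1 day, among them RPS29, RPS16, RPL9 and RPS12, all lower, in a table where 13.6% of genes passed that level. DESeq2 also called 0 members at each of these times, although it called 3.46% of all genes at 1 day. When the 3 times after dosing were compared with each other, 0 members were called at 2 hours against 30 minutes (0% of all genes), 0 at 1 day against 30 minutes (0.0433%) and 0 at 1 day against 2 hours (0.104%). At an unadjusted p under 0.05 these held 0, 22 and 11 members, beside 4.6%, 13.1% and 12.6% of all genes, and DESeq2 called 0 members in all 3, beside 1.05% of all genes from 2 hours to 1 day and 2.99% from 30 minutes to 1 day. The test over all 4 times together called 0 of 75 members (0.104% of all genes), with 5 members at an unadjusted p under 0.05 (12.2% of all genes). DESeq2 called 0 members in that test, beside 3.84% of all genes.

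The members' estimates lay mostly on the same side of 0 at each time, by small amounts. At 30 minutes their median log2 change from before dosing was 0.13, with 69 above 0 and 6 below, against a median of 0.02 for all genes. At 2 hours the median was 0.06, with 50 above and 25 below, again against 0.02 for all genes. At 1 day it was -0.18, or -11.6%, with 8 above and 67 below, against 0.00 for all genes. Single members had standard errors of 0.13 to 0.57 at 1 day with a median of 0.16, so that the typical difference was about as large as its own error. The signs depend on the scaling: with library totals in place of TMM the median of all genes itself moved to -0.16, -0.26 and -0.21 at the 3 times. On that scale the members stood at -0.03, -0.22 and -0.36, with 51, 73 and 73 of 75 below 0. Relative to the median of all genes the members were then at 0.13, 0.04 and -0.15. Without the 1 day library of LG04 the median at 1 day was -0.20, and without the 30 minute and 1 day libraries of LG15 it was -0.13.

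The animals did not move alike at 30 minutes. In LG15 all 75 members were above their level before dosing, with a median log2 change of 0.41, and in LG04 72 of 75 were above it, with a median of 0.25. These counts are on the TMM scale, and the share of all counts in LG04 was lower at 30 minutes and 2 hours, by -0.34 and -0.87 on the log2 scale, while its globin share was higher. In LG11 64 of 75 were below, with a median of -0.11, and in LG12 48 of 75, with a median of -0.09. Without the 30 minute and 1 day libraries of LG15 the fitted median at 30 minutes was 0.02. At 2 hours LG04 and LG12 had 61 and 70 members above 0 (medians 0.16 and 0.13), whereas LG11 and LG15 were split, with 35 and 40 above 0. At 1 day the medians were -0.08, -0.02, -0.33 and -0.33 in LG04, LG11, LG12 and LG15, so that LG12 and LG15 held the lower values. From 30 minutes to 1 day LG15 moved by a median of -0.76, with 73 of 75 members lower, while LG11 moved by 0.04.

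Few members kept a single direction in all 4 animals. The counts that follow are on the TMM scale, and those on library totals are given after them. At 1 day 12 of 75 (16%) were lower in all 4 animals, where 9.09% of all genes were, and 0 were higher in all 4, where 9.83% of all genes were. Among these 12 were RPS29, RPS16, RPL13, RPL10A, RPS12, RPS20, RPL10, RPL12, RPS21, RPS19 and RPL15. At 30 minutes 8 of 75 were higher in all 4 animals (6.21% of all genes): RPS3A, RPL6, RPS27A, RPL31, RPL30, RPS25, RPS13 and RPL36A. At 2 hours 9 were (8.06% of all genes): RPL37A, RPL17, RPL6, RPL36A, RPL23, RPL36AL, RPL7A, RPS24 and RPS23. From 30 minutes to 1 day 16 of 75 were lower in all animals (7.77% of all genes), and from 2 hours to 1 day 20 were (9.16%). In the opposite direction 0 members were lower in all animals at 30 minutes (4.42% of all genes) or at 2 hours (6.52%). None were higher in all animals at 2 hours against 30 minutes (8.54%), at 1 day against 30 minutes (7.73%) or at 1 day against 2 hours (11.3%). From 30 minutes to 2 hours 1 was lower in all (8.06%). On library totals, the scale of the CPM values, none of these 8 and 9 members was higher in all 4 animals: 0 of 75 members were at 30 minutes (1.37% of all genes) and 0 at 2 hours (2.2%). At 1 day 26 of 75 were lower in all 4 on that scale (17.7% of all genes), the 12 included. From 30 minutes to 1 day 7 were (4.67%) and from 2 hours to 1 day 0 (3.91%). In the 3 animals other than LG04 these last counts on library totals were 11 (18.3%) and 33 (24.4%). Without LG04, 20 of 75 were lower at 1 day than before dosing in the other 3 animals on the TMM scale (13.3% of all genes). The comparisons share libraries, so these counts are not separate observations.

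**Figure D3:**
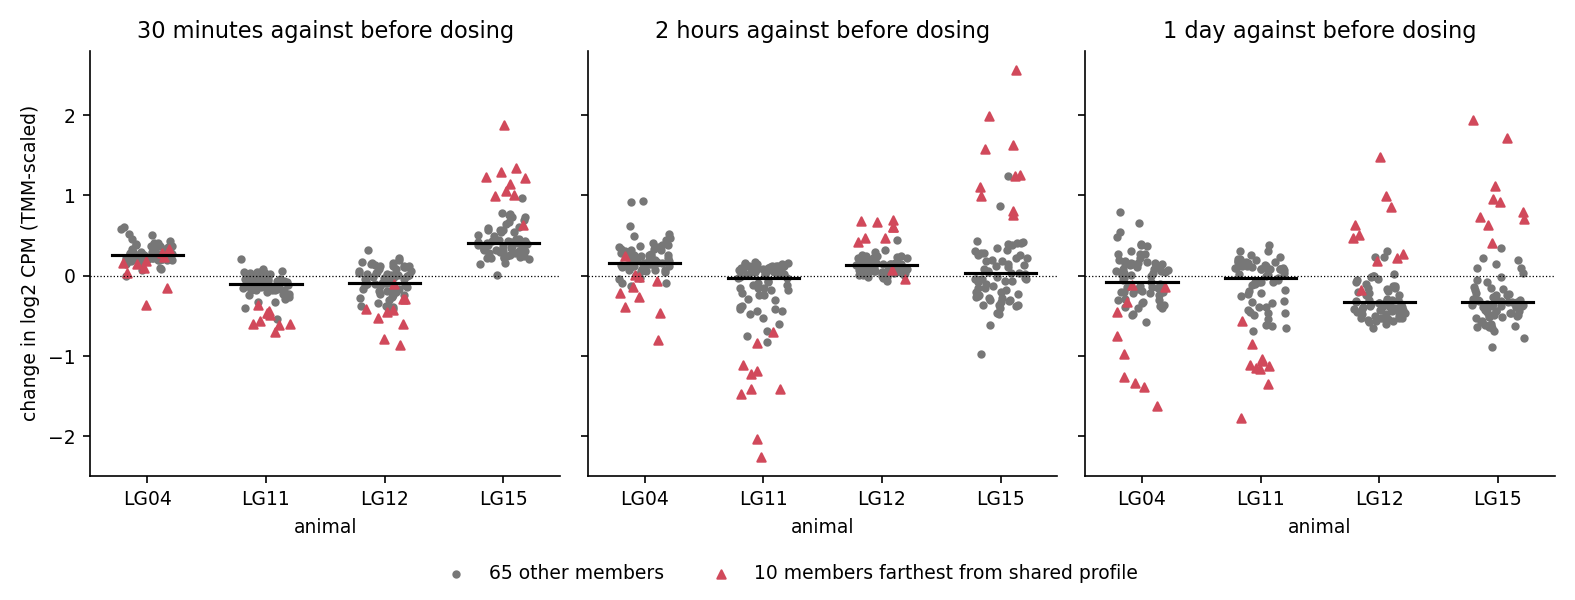
Change in TMM-scaled log2 CPM from before dosing for each of the 75 tested members (points) in each animal, with the median (bar), at 30 minutes, 2 hours and 1 day. At 30 minutes LG15 lies above 0 for all 75 members; at 1 day most of the 10 members drawn as triangles lie below the rest in LG04 and LG11 and above them in LG12 and LG15.

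The extremes of the fitted log2 changes were small at the earlier times. At 30 minutes the highest were RPL29 at 0.30 ± 0.19, RPL36A at 0.28 ± 0.14, RPS15A at 0.24 ± 0.18, RPL22 at 0.23 ± 0.17 and RPL38 at 0.21 ± 0.13 (SE). The lowest included RPS15 at -0.25 ± 0.30, RPS2 at -0.096 ± 0.47, RPL36 at -0.085 ± 0.39 and RPLP2 at -0.070 ± 0.51. At 2 hours RPS9, RPL3, RPLP1, RPLP2 and RPL12 led, at 0.33 ± 0.32, 0.29 ± 0.24, 0.25 ± 0.28, 0.25 ± 0.53 and 0.22 ± 0.16. RPS2, RPS15, RPL36 and RPL28 were at the other end, at -0.20 ± 0.49, -0.16 ± 0.30, -0.14 ± 0.40 and -0.098 ± 0.38. None of these passed the test, and RPS15, RPS2, RPL36, RPLP2, RPS9, RPLP1 and RPL28 belonged to the set of divergent members described further on. At 1 day RPS2, RPS29, RPSA, RPS16 and RPS15 (-0.41 ± 0.31) were lowest, and RPL41, RPS27L, RPS28, RPL36A and RPL38 highest.

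Among small subunit members, RPS29, a short zinc-binding protein of the decoding head, was the lowest at 1 day relative to its error. RPS29 read 27.2, 37.7, 39.2 and 43.1 CPM before dosing, 24.9, 31.7, 34.2 and 53.7 at 30 minutes, 15.9, 31.1, 45.9 and 31.2 at 2 hours and 19.5, 26.1, 29.6 and 17.7 at 1 day. All 4 animals were lower at 1 day than before dosing. The ranges of these groups overlapped in CPM, and after TMM scaling they did not, with 22.1 to 24.4 at 1 day against 29.0 to 38.1 before dosing. The log2 change was -0.47 ± 0.17 (SE), with an adjusted p of 0.215 by edgeR, and -0.46 ± 0.19 without the 1 day library of LG04 (edgeR adjusted p = 0.352). From 30 minutes to 1 day it was -0.60 ± 0.17, with an adjusted p of 0.148 by edgeR, the smallest of any member between any pair of times.

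RPS6, the small subunit protein whose phosphorylation by S6 kinases is the usual readout of mTOR activity, stood at higher levels. Libraries held 1026, 1326, 1905 and 1434 CPM of RPS6 before dosing, 794, 1210.0, 1614 and 1868 after 30 minutes, 559.7, 1399, 1895 and 1307 after 2 hours and 810.4, 1437, 1197 and 712 after 1 day. LG04, LG12 and LG15 were lower at 1 day and LG11 was not, and the ranges overlapped at all times. Its log2 change at 1 day was -0.26 ± 0.17 (SE, edgeR adjusted p = 0.586). RPS14 had a log2 change of -0.01 ± 0.16 at 1 day (edgeR adjusted p = 0.994), over animals that went different ways: after TMM scaling LG11 went from 776 to 594 and LG12 from 840 to 839, while LG04 went from 889 to 998 and LG15 from 900 to 1049. For RPS14 the values were 833, 910.1, 1066 and 1017 CPM before dosing, 666, 722, 1014 and 1698 at 30 minutes, 467, 677, 1177 and 1282 at 2 hours and 823, 668, 1020.1 and 841 at 1 day. All 4 animals were lower at 1 day than before dosing on this scale. LG15 at 30 minutes was the highest value, and LG04 at 2 hours, the library with the most globin, the lowest in CPM, though after TMM scaling it read 1017 and the lowest was LG11 at 2 hours, at 593. RPS27A, made as a fusion with ubiquitin, had a log2 change of -0.28 ± 0.16 at 1 day (edgeR adjusted p = 0.512). RPSA, which doubles as the laminin receptor, was among the lowest estimates at 1 day, -0.42 ± 0.26 (edgeR adjusted p = 0.566), and it was above its level before dosing in LG11. RPS4X had -0.09 ± 0.17 and RPS26 -0.22 ± 0.15. RPS16, which contacts transfer RNA in the decoding centre, had -0.41 ± 0.18 (edgeR adjusted p = 0.339), lower in 4 of 4 animals.

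RPS27 varied little in LG12 up to 2 hours. RPS27 read 329.9, 443, 604 and 514 CPM before dosing, 233, 367, 622 and 709.9 at 30 minutes, 176, 446, 613 and 365 at 2 hours and 332, 403, 429.6 and 280.4 at 1 day. At 1 day the 4 libraries lay closer together, with a log2 change of -0.16 ± 0.17 from before dosing. Its paralog RPS27L went the other way in its estimate, 0.20 ± 0.22 at 1 day. Libraries held 12.7, 37.2, 23.7 and 26.8 CPM of RPS27L before dosing, 11.0, 29.2, 24.5 and 28.4 after 30 minutes, 12.03, 38.5, 23.6 and 20.6 after 2 hours and 17.9, 46.7, 28.2 and 12.4 after 1 day. LG11 held the highest RPS27L value at each of the 4 times, in CPM and after TMM scaling.

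In the large subunit, RPL12, part of the base of the stalk, was the lowest from 2 hours to 1 day. For RPL12 the values were 202, 229, 279.6 and 251 CPM before dosing, 190.4, 197, 226 and 394 at 30 minutes, 137, 192, 344 and 286 at 2 hours and 163, 175, 179 and 159 at 1 day. All 4 animals were lower at 1 day than at 2 hours on the TMM scale, with a log2 change of -0.52 ± 0.16 (SE, edgeR adjusted p = 0.273). The 1 day values lay within 159 to 179 CPM, whereas after TMM scaling they ran from 147 to 199, against 195 to 223 before dosing. RPL5 and RPL11, the partners of 5S RNA, had log2 changes of -0.27 ± 0.17 and -0.20 ± 0.17 at 1 day. RPL5 read 382, 535, 700.0 and 618 CPM before dosing, 290.2, 473, 687 and 796 at 30 minutes, 204, 527, 715 and 421 at 2 hours and 337, 539.7, 458 and 279 at 1 day. Libraries held 714, 942, 1371 and 1182 CPM of RPL11 before dosing, 573, 843, 1263 and 1541 after 30 minutes, 409.9, 963, 1449 and 1017 after 2 hours and 678, 957, 891 and 589 after 1 day. Both were lower in LG12 and LG15 at 1 day and near their level before dosing in LG11, once scaled. In LG04 neither was lower at 1 day after TMM scaling, with RPL5 going from 407 to 409 and RPL11 from 761 to 823.

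RPL38, a small protein known for its part in translating Hox mRNAs, was among the members with the highest estimates. For RPL38 the values were 327, 411, 569.5 and 501 CPM before dosing, 292, 395, 522 and 706 at 30 minutes, 213, 361, 629 and 622 at 2 hours and 375, 373, 499 and 380.5 at 1 day. Its log2 change was 0.21 ± 0.13 at 30 minutes, 0.20 ± 0.13 at 2 hours and 0.06 ± 0.13 at 1 day (SE), none past the test. LG12 had 499 CPM at 1 day, where the other 3 animals read 373 to 380.5 CPM, but after TMM scaling it lay among them, with 455, 331, 411 and 475. RPL41, the shortest ribosomal protein, had the highest estimate of any member at 1 day, 0.24 ± 0.20 (SE, edgeR adjusted p = 0.711). RPL41 read 30.3, 41.6, 40.7 and 49.8 CPM before dosing, 26.7, 36.5, 38.8 and 60.5 at 30 minutes, 28.2, 35.6, 44.6 and 37.0 at 2 hours and 46.6, 49.4, 38.8 and 31.7 at 1 day. LG04 and LG11 were above their level before dosing at 1 day and LG15 was below it. RPL36A had 0.28 ± 0.14 at 30 minutes, higher in 4 of 4 animals after TMM scaling but not in CPM, where LG04 went from 40.4 to 35.5, and 0.08 ± 0.14 at 1 day. RPL36AL, its more abundant copy, had 0.12 ± 0.13, 0.18 ± 0.13 and -0.16 ± 0.13 at the 3 times. Libraries held 114, 156, 158 and 157 CPM of RPL36AL before dosing, 93.2, 139, 140.3 and 205 after 30 minutes, 72.5, 169.8, 174 and 149 after 2 hours and 91.0, 158, 124 and 88.7 after 1 day. LG04 was the lowest animal before dosing, at 114 CPM, while the other 3 read 156 to 158 CPM. After TMM scaling the 4 read 122, 133, 125 and 139, with no animal apart. RPL10, RPL13A and RPL22 had log2 changes of -0.32 ± 0.17, -0.18 ± 0.14 and -0.02 ± 0.18 at 1 day. RPL10 brings the large subunit to its final form, RPL13A can repress inflammatory mRNAs, and RPL22 is needed for normal T cell development.

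The stalk proteins did not move together. RPLP0 is the base of the lateral stalk that recruits elongation factors, and RPLP1 and RPLP2 are the acidic arms that bind it. For RPLP0 the values were 388, 503, 599 and 608 CPM before dosing, 337, 433, 478 and 950.2 at 30 minutes, 267, 465, 629.7 and 647 at 2 hours and 362, 538, 492 and 308 at 1 day. RPLP0 followed the other members, highest in LG15 at 30 minutes. RPLP1 read 338, 409, 261 and 309.6 CPM before dosing, 264, 281, 228 and 507 at 30 minutes, 166, 244, 415 and 622 at 2 hours and 217, 265, 451 and 292 at 1 day. Libraries held 245, 224, 119 and 103 CPM of RPLP2 before dosing, 173, 136, 82.1 and 266 after 30 minutes, 91.6, 81.9, 178 and 570.3 after 2 hours and 85.0, 98.6, 227 and 239 after 1 day. RPLP2 ranged from 81.9 CPM in LG11 at 2 hours to 570 CPM in LG15 at 2 hours, and the animals took opposite courses. On the TMM scale RPLP2 in LG15 was 2.56 log2 units above its level before dosing at 2 hours, and in LG11 it was at -1.41. The fitted log2 change at 1 day was -0.10 ± 0.19 for RPLP0, 0.05 ± 0.28 for RPLP1 and -0.04 ± 0.52 for RPLP2 (SE), so the error of RPLP2 was the largest of the 3.

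RPLP2 belonged to a set of members that departed from the shared course. For each gene the mean of its animal was subtracted from its log2 CPM, and the root mean square distance to the median of the 75 members was taken over the 16 libraries. The median distance was 0.11 for members and 0.29 for the 6952 other genes with a mean of at least 16 CPM. Members lie nearer in part by construction, since the median was taken over them, and the other genes were not matched for level. The 10 farthest members were RPS28 (0.74), RPLP2 (0.69), RPS2 (0.62), RPL36 (0.53), RPL28 (0.47), RPS9 (0.41), RPL18 (0.40), RPS15 (0.40), RPL35 (0.39) and RPLP1 (0.36), and the next was RPL3 (0.29). This set was chosen after its values were seen and gets no test.

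These 10 members moved with each other. For RPS28 the values were 61.9, 75.6, 25.4 and 23.6 CPM before dosing, 51.7, 50.7, 17.9 and 92.5 at 30 minutes, 27.5, 17.6, 40.2 and 88.9 at 2 hours and 43.3, 21.0, 68.4 and 64.9 at 1 day. RPS28, a small protein at the mRNA exit, was high in LG04 and LG11 and low in LG12 and LG15 before dosing. After TMM scaling RPS28 went from 66.0 to 59.9 in LG04, from 64.4 to 15.4 in LG11, from 20.0 to 32.0 in LG12 and from 20.9 to 83.9 in LG15 by 2 hours, so LG11 and LG15 changed places and LG04 stayed above LG12. RPS2 read 49.2, 45.6, 20.7 and 20.9 CPM before dosing, 29.2, 30.0, 12.8 and 52.0 at 30 minutes, 13.7, 8.95, 33.4 and 61.4 at 2 hours and 17.9, 16.8, 23.3 and 32.6 at 1 day. RPS2, at the mRNA entry of the small subunit, followed the same course, from 45.6 to 8.95 CPM in LG11 and from 20.9 to 61.4 CPM in LG15 between the bleed before dosing and 2 hours. In LG11 before dosing all 10 lay above the median of the other 65 members, by 0.74 at the median, and at 2 hours 0 of 10 did, with a median difference of -0.58. In LG15 it was 0 of 10 before dosing (-0.82) and 10 of 10 at 2 hours (0.52). LG12 went from 2 of 10 (-0.21) before dosing and 0 of 10 (-0.65) at 30 minutes to 10 of 10 at 2 hours (0.14) and 1 day (0.66). LG04 went from 10 of 10 before dosing (0.43) to 0 of 10 at 1 day (-0.42). The animals went opposite ways, and the standard errors of these members at 1 day had a median of 0.36 against 0.16 for the other 65, while their median change was -0.19 against -0.18. By animal the median changes at 1 day were -0.86, -1.11, 0.49 and 0.85 for the 10 and 0.01, 0.07, -0.36 and -0.37 for the 65. In LG04 the TMM-scaled sum of the 10 went from 2249 to 1343 CPM by 1 day. That of the 65 went from 22772 to 22598, so the lower sum of LG04 lay mostly in the 10. RPS2 had the lowest estimate of all members at 1 day, -0.48 ± 0.49, and RPS28 was among the highest, 0.19 ± 0.57. Neither passed the test (edgeR adjusted p = 0.791 and 0.957), and without the 1 day library of LG04 they stood at -0.30 ± 0.54 and 0.35 ± 0.63.

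**Figure D4:**
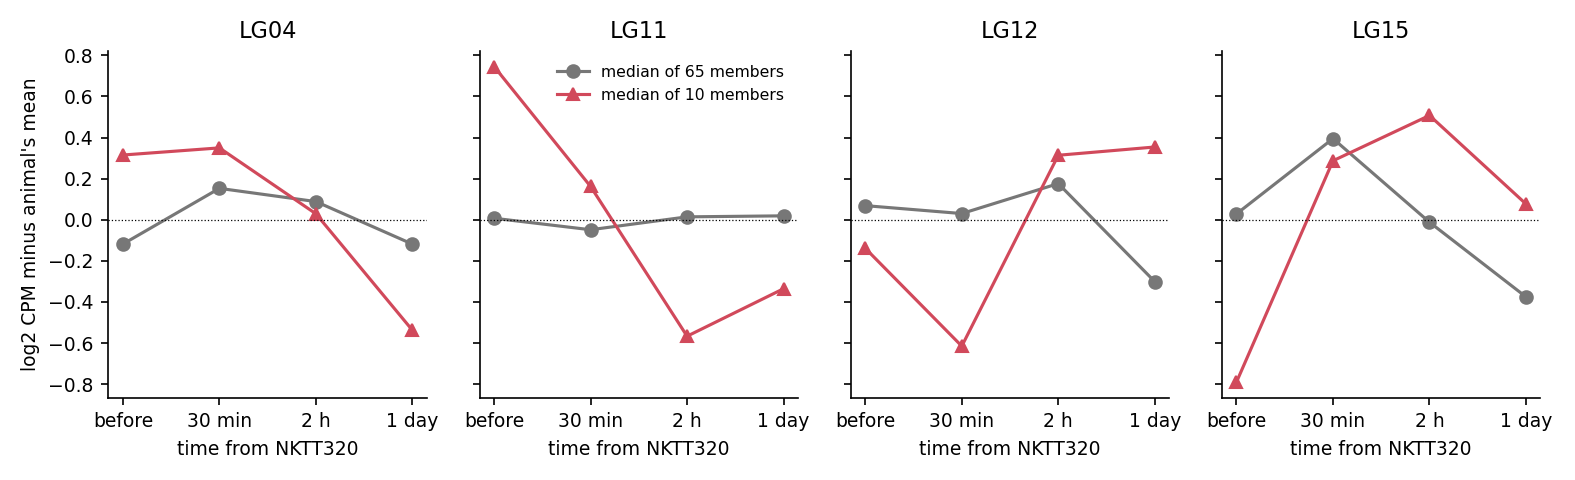
Median log2 CPM, after subtracting each animal's own mean, of the 10 members farthest from the shared profile (triangles) and of the other 65 members (circles) at 4 times in each animal. From before dosing to 1 day the 10 members are lower in LG04 and LG11 and higher in LG12 and LG15, while the median of the 65 stays between -0.38 and 0.39 in all 16 libraries.

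The non-member genes nearest to the course of the 10 were LIMD2 (0.08), EEF1D (0.09), PFKL (0.11), GTF2F1 (0.11) and PPP6R1 (0.11). EEF1D is a subunit of the elongation factor complex, and PFKL is the liver form of phosphofructokinase. Markers of other cells moved over the same libraries: platelet markers in LG15 summed to 11074 CPM before dosing, 2155 at 30 minutes, 5406 at 2 hours and 21264 at 1 day, and monocyte markers to 2385, 4089, 8690 and 1216 CPM. In LG11 monocyte markers summed to 3565, 5531, 7358 and 10333 CPM while platelet markers stayed between 155 and 894 CPM. The part of these cells, of library composition and of reads from pseudogenes in the course of the 10 members was not tested.

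Genes outside the rule were ranked by their likeness to the members' median course. The 10 genes outside the rule that lay nearest to the members' median, among 7027 genes compared, were EIF3D (0.06), EEF1B2, EEF1G, ATP5O, COMMD6, RPS4Y1, NACA, ATP5A1, EEF1A1 and EIF3H (0.08). EIF3D and EIF3H are subunits of an initiation factor, and EEF1A1, EEF1B2 and EEF1G belong to the elongation factor that delivers aminoacyl-tRNA. NACA is part of the complex that meets the nascent chain at the tunnel exit, and RPS4Y1 is the Y-linked copy of RPS4X. Of the 100 genes nearest to the median, 41 were members, though the median was itself taken over them.

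Of the companion lists, 0 genes in each were called at 30 minutes, 2 hours or 1 day against before dosing. The 6 elongation factors had medians of 0.14, 0.10 and -0.14 at the 3 times, close to the members' 0.13, 0.06 and -0.18, and 6 of 6 were below 0 at 1 day. EEF1A1 had a log2 change of -0.15 ± 0.19 and EEF2 of -0.24 ± 0.27 at 1 day. The animals were split for both after TMM scaling. EEF2 went from 1860, 1683, 961 and 1113 CPM before dosing to 1051, 1072, 1118 and 1405 at 1 day. It was thus lower in LG04 and LG11 and higher in LG12 and LG15, and EEF1A1 went the other way in each animal. The 17 other TOP mRNAs had medians of 0.13, 0.14 and -0.07, with 17 of 17 above 0 at 30 minutes. FAU, which encodes RPS30 as a fusion protein, and GNB2L1, which encodes RACK1, had -0.28 ± 0.24 and -0.24 ± 0.19 at 1 day. The 25 tested initiation factors had medians of 0.03, 0.05 and -0.01. The 18 tested genes of the mTOR pathway and its TOP regulators stood at -0.07, -0.09 and -0.06. Assembly factors of the large subunit (11 tested) had -0.07, -0.04 and -0.04, and those of the small subunit (12 tested) -0.02, -0.04 and 0.08. All these medians are on the TMM scale, and with library totals they move down with the median of all genes.

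Mitochondrial ribosomal protein genes stood near 0 at 1 day. Their 46 tested large subunit genes had medians of 0.05, 0.05 and 0.00 at the 3 times, with 23 above and 23 below 0 at 1 day. The 25 tested small subunit genes had 0.04, 0.06 and -0.02. The difference between the cytosolic and mitochondrial sets was not tested.

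Several marker lists of other cells had medians further from 0 than the members. At 1 day all 10 tested platelet markers were above their level before dosing, with a median log2 change of 2.74 and 0 called (smallest edgeR adjusted p = 0.0755). Their summed levels were 377, 155, 165 and 11074 CPM before dosing and 26633, 894, 1228 and 21264 CPM at 1 day. Of 10 tested neutrophil markers 8 were below 0 at 1 day, with a median of -1.34 and 0 called, and their sum ran from 142 to 4347 CPM before dosing and from 198 to 438 CPM at 1 day. Of 15 T cell markers 12 were below 0 at 1 day (median -0.12, 0 called), with sums of 1999 to 3441 CPM before dosing and 1733 to 2780 CPM at 1 day. Of 15 monocyte markers 14 were above 0 at 1 day (median 0.41, 0 called), with sums of 783 to 3749 CPM before dosing and 1199 to 10333 CPM at 1 day. By animal their median TMM-scaled changes were -0.32, 1.45, 1.70 and -0.46, so they were lower in LG04 and LG15. Over LG11, LG12 and LG15 alone, the medians of the mean TMM-scaled log2 changes at 1 day were 2.07 for platelet, -0.17 for neutrophil, -0.27 for T cell and 0.66 for monocyte markers. By animal the medians were -3.78, -0.11, 0.86 and -1.16 for neutrophil and 0.09, -0.40, -0.28 and 0.01 for T cell markers. Of these 4 lists only the platelet medians went the same way in all animals, at 5.74, 1.75, 2.42 and 1.71. All 11 tested red cell markers were above 0 at 30 minutes, 2 hours and 1 day, with medians of 0.80, 0.86 and 1.24. Their sums were 180511, 40965, 294 and 54292 CPM before dosing and 117741, 32313, 1530 and 184893 CPM at 1 day, so lower in LG04 and LG11. At the earlier times other lists stood apart. At 30 minutes 11 of 11 tested NK cell markers were below 0, with a median of -0.85, and their sum ran from 660 to 1025 CPM before dosing and from 279 to 676 CPM at 30 minutes. In the same libraries 11 of 11 tested B cell markers were above 0, with a median of 0.34. At 2 hours 15 of 15 monocyte markers were above 0 (median 1.19) and 10 of 11 B cell markers below it (median -0.42). The B cell medians by animal were -1.15, 0.11, 0.15 and -1.03 at 2 hours, so LG11 and LG12 were not lower. In each of these lists 0 genes were called. No marker of the first 4 lists was at 0 counts in all libraries. The part of these cells in the members' values at any of the 3 times was not tested.

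A part of the members differed between animals. With the 4 bleeds of an animal as its libraries and time as a term, 10 of 75 members were called by edgeR's quasi-likelihood test (13.3%), against 44.5% of all genes. At an unadjusted p under 0.05 there were 20 members, beside 54% of all genes. The median spread between the highest and the lowest animal was 0.40 log2 units for members and 0.70 for all genes, while the spread between times was 0.33 and 0.38. For 46 of 75 members (61.3%) the animals spread more than the times did, beside 82.2% of all genes. LG15 was the highest animal for 39 members and LG12 for 26, and LG11 was the lowest for 40. The bleeds of an animal are not independent animals, so these p-values measure differences relative to the spread between bleeds. Of mitochondrial ribosomal protein genes, 6 of 46 for the large and 3 of 25 for the small subunit were called.

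The 10 called members were RPS14, RPL27, RPL38, RPS27L, RPL36A, RPS26, RPL12, RPL17, RPL30 and RPL23A. RPS14 read 993 ± 76.4, 656 ± 86.0, 866 ± 48.5 and 1146 ± 225 TMM-scaled CPM in LG04, LG11, LG12 and LG15 (SD, n = 4; edgeR adjusted p = 0.0081). LG11 was the lowest animal, and its highest bleed, at 776, lay below the lowest bleed of each of the other 3. RPL27, of the large subunit, read 240.5 ± 22.3, 189 ± 11.0, 212 ± 21.7 and 307 ± 73.9, with LG11 the lowest animal again (edgeR adjusted p = 0.00887). Libraries held 199, 241, 255 and 309 CPM of RPL27 before dosing, 165, 202, 271 and 443 after 30 minutes, 113, 211, 293 and 387 after 2 hours and 196, 204, 227 and 176 after 1 day. RPL38 read 434 ± 57.6, 340.1 ± 20.2, 449 ± 38.2 and 524 ± 76.5 (edgeR adjusted p = 0.0153). RPS27L was highest in LG11, with 19.8 ± 5.42, 33.4 ± 6.12, 20.3 ± 2.11 and 20.6 ± 4.0 (edgeR adjusted p = 0.0228). LG11 was the lowest animal for RPS14, RPL27 and RPL38, and its lowest bleed for RPS27L, at 26.8, lay above every bleed of the other animals. RPL17 was lowest in LG04, at 82.4 ± 6.14, and highest in LG15, at 124 ± 27.4 (edgeR adjusted p = 0.0459). RPL36A, RPS26 and RPL30 were higher in LG12 and LG15 than in LG04 and LG11 by their means.

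**Figure D5:**
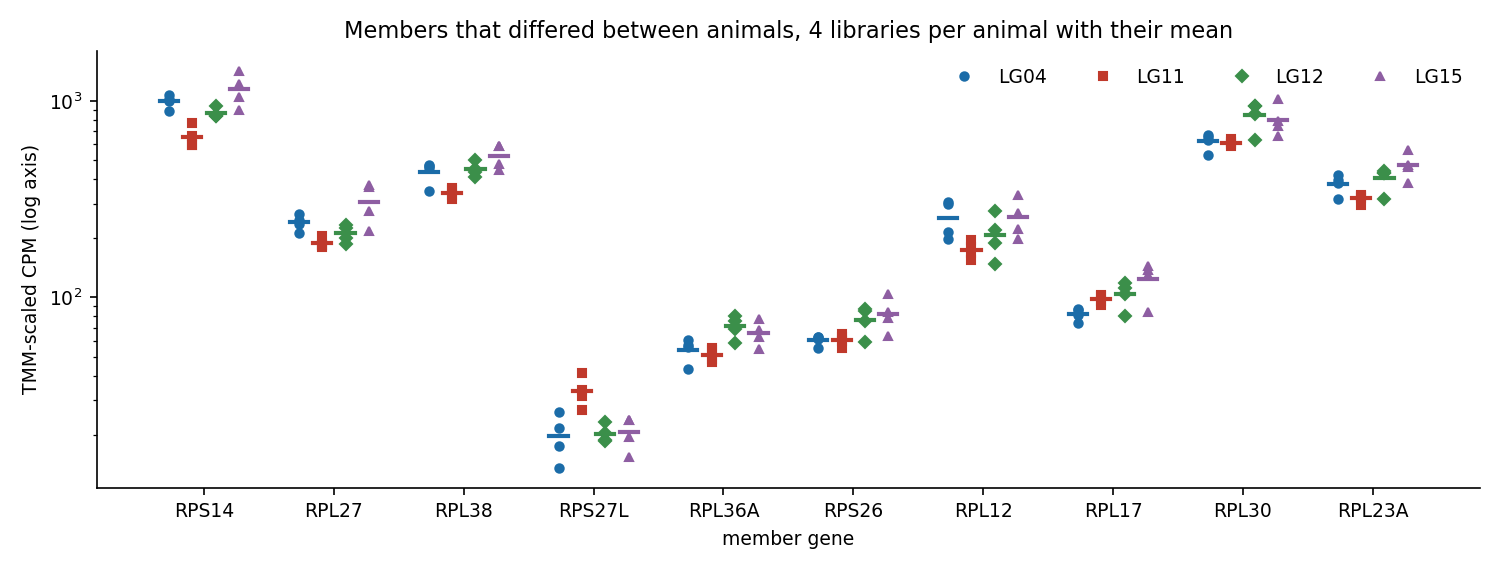
TMM-scaled CPM (log axis) of the 10 members that differed between animals, 4 libraries per animal as points with their mean as a bar. LG11 lies lowest for RPS14, RPL27 and RPL38 and highest for RPS27L.

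These calls depended on the libraries and the scaling. Leaving out LG04, LG11, LG12 or LG15 left 5, 2, 1 and 7 calls among the members. Without the 2 hour library of LG04 there were 4, without the 4 shallowest libraries 2, and without the 30 minute and 1 day libraries of LG15 there were 3. DESeq2 called 27 members (49.5% of all genes), and library totals without TMM gave 44 (66% of all genes). RPS14 stayed past the threshold in 12 of 13 alternatives, the exception being the fit without LG11, at an adjusted p of 0.126 by edgeR. RPL27 and RPS27L stayed past it in 10 of 13, and without LG11 the adjusted p of RPS27L was 0.893 by edgeR.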

How the data were processed

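Gene counts and FPKM were taken from the tables the authors deposited for each animal. Per the submitters' processing notes, FastQC, Trimmomatic, STAR, HTSeq, DESeq and edgeR were used with the human builds GRCh37 and hg19; the labels give no role, version or strand setting for them. The deposited count values are whole reads per gene symbol. The deposited FPKM values are scaled by gene length and library total, but they are a separate estimate and not those counts rescaled. Per the labels' protocols, ribosomal RNA was depleted from total RNA, libraries were stranded and reads single-ended. Macaque reads were therefore assigned to human gene names, and reads shared with pseudogenes or duplicated copies could be lost or misplaced. Members and gene lists were chosen with earlier results of these data known.

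Counts of entries with the same symbol were summed. CPM use library totals. The test was edgeR 4.0.16 (R 4.3.3) glmQLFit and glmQLFTest with TMM and filterByExpr, animal and time as terms, 9 residual degrees of freedom and Benjamini-Hochberg adjustment over 11545 genes, with the threshold at 0.05; DESeq2 1.42.0 was an alternative. The fit was tested on simulated counts. Animal was a block since every animal gave all 4 bleeds. Deviations from the time means correlated above 0.1 in 23 of 24 pairs of libraries from the same animal (median r = 0.56 across genes). Named members were those called, the 5 highest and 5 lowest by log2 change at each time and by FPKM, the members without counts, and members of fixed special roles and paralog pairs; members lower or higher in all animals, and the 10 farthest from the shared course, were added after values were seen. The alternatives were RLE size factors, library totals, globin removed, DESeq2, no filter, no animal term, and libraries or animals left out. In the series-wide tables the LG04 2 hour column held the values of the LG04 1 day library, so the tables per animal were used instead. Counting intervals would cover counting error only. Some members that the naming rule covers are not reported here. Gene sequences and coordinates were not used here.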

Additional observations from a re-analysis of the deposited data

Results flagged for a closer look

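Of 80 groups of 4 libraries examined for a library far from the other 3, 3 had such a library, and chance flags about 1 in 20 groups. RPL36AL before dosing was 114 CPM in LG04, below the 156 to 158 CPM of the other 3 animals, and after TMM scaling the 4 read 122, 133, 125 and 139, with no library far from the rest. RPL38 at 1 day was 499 CPM in LG12, above the 373 to 380.5 CPM of the others, and after TMM scaling it read 411, between LG11 at 331 and LG04 and LG15 at 455 and 475. The ratio of large to small subunit FPKM at 2 hours was 1.33 in LG15, above 1.17 to 1.19 in the others. The source of the last value was not tested.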

How the results depend on the processing

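No member was called over time under any alternative run: other size factors, library totals, globin removed, DESeq2, no filter, no animal term, or libraries and animals left out. The median change at 1 day was below 0 in all of them, from -0.36 to -0.11, and at 30 minutes it ranged from -0.03 to 0.19. With library totals in place of TMM the members' median was -0.22 at 2 hours and -0.36 at 1 day. Without each animal in turn the median at 1 day ran from -0.23 to -0.11.

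Without the replicate block (time alone, no animal term) 0 members were called at each time and the medians were 0.15, 0.07 and -0.19 at 30 minutes, 2 hours and 1 day. In that fit RPL36 (0.054), RPLP2 (0.13) and RPS2 (0.038) turned above 0 at 30 minutes; the block changed no call among the members.

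Members called between animals numbered 10; they were 27 by DESeq2, 44 with library totals, 5 with no filter, 2 without the 4 shallowest libraries, 4 without LG04 at 2 hours and 3 without LG15 at 30 minutes and 1 day. Without 1 animal at a time there were 1 to 7. The choices without LG04 at 2 hours and without LG15 at 30 minutes and 1 day were added after the data were seen, as were the direction counts on library totals and the values over the animals other than LG04. The cause was not tested.

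Log2 changes of uncalled members that changed sign were these. With library totals RPL12 (-0.059), RPLP1 (-0.027) and RPLP2 (-0.041) were below 0 at 2 hours, and RPL36A (-0.089), RPL38 (-0.11) and RPS28 (-0.054) at 1 day. Without the 4 shallowest libraries RPL36 (0.14), RPLP2 (0.20) and RPS2 (0.22) were above 0 at 30 minutes, and RPLP2 was at -0.25 at 2 hours. Without LG04 at 1 day RPL36A was at -0.021 at 1 day. Leaving out each animal in turn gave log2 changes of both signs at 30 minutes for RPS2 (-0.37 to 0.099), RPL36 (-0.33 to 0.0997) and RPLP2 (-0.30 to 0.19), at 2 hours for RPS2 (-0.73 to 0.43), RPS15 (-0.53 to 0.17), RPL36 (-0.51 to 0.29), RPL28 (-0.35 to 0.38), RPLP2 (-0.44 to 0.84), RPLP1 (-0.023 to 0.58), RPL3 (-0.026 to 0.52) and RPS9 (-0.057 to 0.73), and at 1 day for RPL38 (-0.054 to 0.16), RPL36A (-0.070 to 0.21) and RPS28 (-0.28 to 1.03).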
